A study of Mus musculus with 18 samples.

Results

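CD28-deficient mice still make regulatory T cells (Treg), and the comparison described here asks how their Nrp1+ Treg differ from their Nrp1-negative Treg. It rests on 6 of the 18 libraries of the study, picked by title: the 3 CD28KO tTreg libraries, made from Nrp1+ Treg, and the 3 CD28KO pTreg libraries, made from Nrp1-negative Treg. Both groups were sorted from the spleen of CD28-/- C57BL/6 mice that also carried a Foxp3EGFP reporter allele, so the deletion and the reporter are common to all 6 libraries and the comparison is not one of CD28 loss. The other 12 libraries hold conventional T cells (Tconv) of CD28-/- mice, and Nrp1+ Treg, Nrp1-negative Treg and Tconv of wild type Foxp3EGFP mice, 3 each. Age, sex, the gates of the sort and whether animals were pooled are not given in the sources used here. No label ties a replicate to its own animal, and a p-value here therefore reflects the spread between these samples alone, which may be technical.

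Treg are CD4 T cells that hold back immune responses, and the transcription factor Foxp3 defines them. Neuropilin-1 (Nrp1) is a coreceptor for semaphorins and vascular growth factors, and in mice it is widely used, together with the transcription factor Helios (Ikzf2), to mark Treg that matured in the thymus, while Treg induced from conventional T cells in the periphery mostly lack it. CD28 is the classical costimulatory receptor of T cells, and it contributes to thymic Treg generation and to Treg upkeep and activation. Spleen Treg also divide into a resting part, rich in homing receptors for lymphoid tissue, and an effector part that carries inhibitory receptors and tissue-homing receptors.

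Each library gives one FPKM value per gene (fragments per kilobase of transcript, scaled to the mapped fragments). Differences are given as log2(FPKM + 1) in Nrp1+ minus Nrp1-negative Treg, with the standard error (SE) from limma; 1 unit is a 2-fold difference for well-expressed genes, and the scale understates the fold of genes with low FPKM. Group values are means ± SD of n = 3 libraries in FPKM. A gene was called when its limma p, adjusted over all tested genes by the Benjamini-Hochberg method, was under 0.05. These values carry no read counts, the depth behind them is unknown, and they have no counting interval.

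The targeted gene gave no check of the genotype, since FPKM is one value for the whole gene: Cd28 stood at 76.1 ± 4.68 FPKM in Nrp1+ and 76.0 ± 19.0 FPKM in Nrp1-negative Treg (adjusted p = 0.945). The markers of the cells were in place. Foxp3 stood at 98.0 ± 8.96 FPKM in Nrp1+ and 93.1 ± 15.5 FPKM in Nrp1-negative Treg (adjusted p = 0.769), and Cd4 averaged 179 ± 9.24 FPKM in Nrp1+ and 181 ± 15.9 FPKM in Nrp1-negative Treg. Nrp1, the marker of the sort, was 61.5, 74.4 and 58.0 FPKM in Nrp1+ libraries, against 0.449, 0.694 and 0.798 FPKM in Nrp1-negative libraries. Rank correlations between libraries were 0.968 to 0.981 among Nrp1+ libraries, 0.948 to 0.969 among Nrp1-negative libraries and 0.927 to 0.961 between the groups.

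Nrp1+ replicate 3 stood apart from the other two Nrp1+ libraries by transcripts of conventional T cells. Pdlim4, Ggt5, Slc16a5 and Dapl1 were higher in Tconv than in Treg in earlier results of these data. Their summed FPKM was 4.30, 7.32 and 46.1 in Nrp1+ replicates 1, 2 and 3. In Nrp1-negative libraries the sum was 29.7, 43.9 and 33.6, and in CD28-deficient Tconv it was 173, 192 and 140. Every test was therefore repeated without Nrp1+ replicate 3: of 83 called genes named by the rule described with the processing, 13 lost their call, and a loss is stated with each gene described. Summed markers of B cells (6.76 to 7.29 FPKM in Nrp1+ and 6.43 to 8.28 FPKM in Nrp1-negative libraries) overlapped between the groups, and so did those of myeloid cells, CD8 T cells and red cells and platelets. Those of plasma cells, a list that holds the Treg factor Irf4, did not (39.4 to 44.3 FPKM in Nrp1+ and 31.8 to 37.97 FPKM in Nrp1-negative libraries), nor did those of NKT and gamma-delta T cells (2.24 to 2.66 FPKM in Nrp1+ and 1.43 to 1.73 FPKM in Nrp1-negative libraries); their part in the results was not tested.

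Of 11661 genes tested, 585 rose and 622 fell in Nrp1+ relative to Nrp1-negative Treg, 10.4% of those tested (5.02% higher and 5.33% lower). At an unadjusted p under 0.05 there were 3129. The counts of each gene list below are to be read against the 10.4% called here. Some list members passed the filter through one group only, as named with the processing, so their direction was set by the filter. The large differences lay mostly on one side. Among called genes, 270 were higher by at least 1 log2 unit, while 54 were lower by as much; at 2 log2 units the counts were 47 and 6. The median difference over all tested genes was -0.04. All 1207 called genes had groups that did not overlap, as did 33.7% of all tested genes. Groups described below as apart are therefore no support beyond the call. Quantile normalization, which gives every library the same distribution, moved the split to 723 higher and 465 lower.

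**Figure D1:**
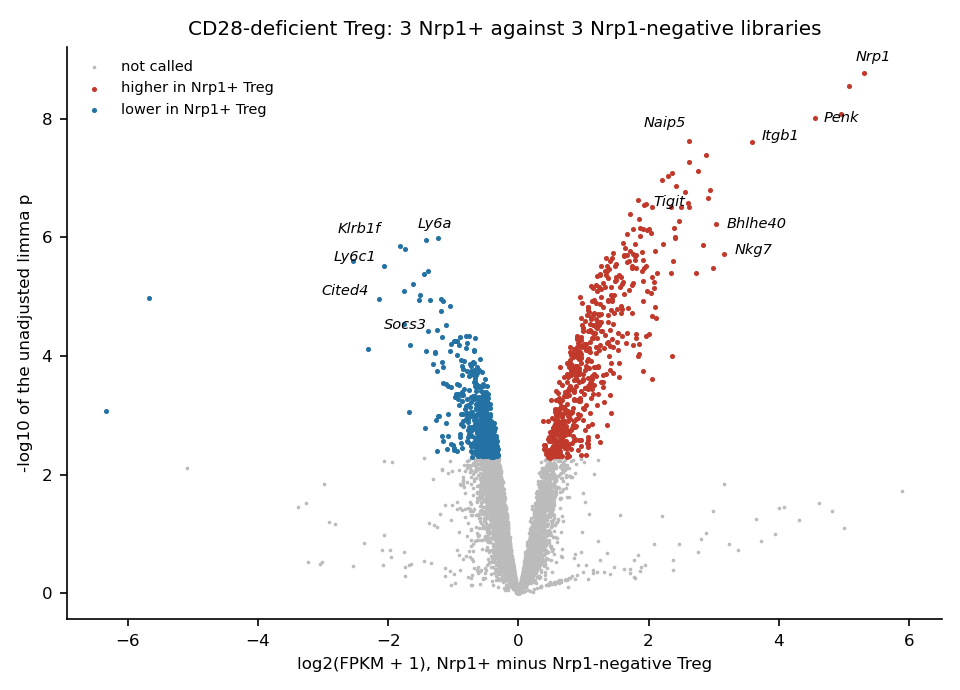
Difference of each of 11661 tested genes (x axis, log2(FPKM + 1), Nrp1+ minus Nrp1-negative Treg of CD28-deficient mice) against the -log10 of its unadjusted limma p (y axis), with 585 called higher in red and 622 called lower in blue. Genes with large differences lie mostly on the right, and Nrp1, the sort marker, Penk and Itgb1 lead the named ones.

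Without Nrp1+ replicate 3, 583 genes were called (375 higher, 3.22% of those tested, and 208 lower, 1.78%), of which 544 were called with all 6 libraries too, and all 1207 genes kept their sign. The higher side kept 375 of 585 calls and the lower side 169 of 622. Leaving out any single library gave 446 to 1456 calls, and 408 genes (323 higher, 85 lower) were called in all 6 such fits. Libraries with the same replicate number deviated together, and a fit with the replicate number as a block called 2205 genes (815 higher, 6.99% of those tested, and 1390 lower, 11.9%; 18.9% in all), including all 1207. Of the 83 called named genes, 63 were called in every fit that left out one library, and the 20 others are marked below where they appear. In a fit of the 12 Treg libraries of both genotypes 16 of the 83 were not called (adjusted p from 0.0660 to 0.424). Of the genes described below these are Rora, Maf, Plxna1, Itgav, Nr4a2, Cd86, Mki67, Ccr7, Il7r and Irf4. Of genes named after their values were seen, that fit did not call Ikzf3, Jund, Ier2, Dusp2, Zfp36 and Ccr9 (adjusted p from 0.0626 to 0.252). Without wild type Nrp1-negative replicate 1, an alternative chosen after seeing the data, the fit of both genotypes called all 83.

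Among named genes, Penk and Itgb1 had the largest differences after Nrp1 itself. Penk encodes proenkephalin, the precursor of enkephalin opioid peptides. It was 44.0, 39.3 and 32.6 FPKM in Nrp1+ libraries, against 0.444, 0.810 and 0.773 FPKM in Nrp1-negative libraries. No Nrp1+ library came near the Nrp1-negative range. The difference was 4.56 ± 0.15 (SE; adjusted p = 2.77e-05) and 4.68 without Nrp1+ replicate 3. In RNA from sorted populations, a lower level can mean fewer cells with the transcript or less of it in each cell, and these cannot be told apart here.

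Itgb1 encodes the integrin beta-1 chain, which pairs with several alpha chains to bind extracellular matrix and VCAM-1. It was 134, 140 and 108 FPKM in Nrp1+ libraries, against 8.26, 10.6 and 10.3 FPKM in Nrp1-negative libraries, with a difference of 3.58 ± 0.14 (adjusted p = 4.79e-05; 3.70 without Nrp1+ replicate 3). The gap between the groups was many times the spread within either. Itgb1 is also the next protein-coding gene after Nrp1 on chromosome 8 of GRCm38: Nrp1 spans chr8:128358604-128503363 and Itgb1 chr8:128685654-128733200, both on the plus strand, and their starts are 327050 bases apart. The tested neighbours on the other side did not pass the test: Tomm20 averaged 19.3 FPKM in Nrp1+ and 22.7 FPKM in Nrp1-negative Treg (adjusted p = 0.403), and Rbm34 averaged 8.96 FPKM in Nrp1+ and 9.68 FPKM in Nrp1-negative Treg (adjusted p = 0.644). Pard3, the nearest gene on that side, was under the filter, with means of 0.227 FPKM in Nrp1+ and 0.0132 FPKM in Nrp1-negative Treg. The 250 bases before the RefSeq starts of the pair, chr8:128358823-128359072 and chr8:128685404-128685653 (RefSeq, GRCm38.p6, plus strand), are shown because these adjacent genes had 2 of the 3 largest differences among named genes. The RefSeq start of Nrp1 lies downstream of its GENCODE start, so its window falls inside the span given above. Capitals mark matches, on either strand, to the AP-1 motif TGANTCA, the NFAT core GGAAAA, the forkhead motif TGTTTAC, the nuclear receptor half-site AGGTCA, the cAMP response element TGACGTCA and the GC box GGGCGG; none of these contains another.
Nrp1: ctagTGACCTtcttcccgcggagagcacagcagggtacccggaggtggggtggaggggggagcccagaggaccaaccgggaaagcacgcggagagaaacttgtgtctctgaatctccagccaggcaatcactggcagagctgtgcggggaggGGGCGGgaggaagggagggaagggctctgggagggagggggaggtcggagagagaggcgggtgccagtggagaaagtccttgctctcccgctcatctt
Itgb1: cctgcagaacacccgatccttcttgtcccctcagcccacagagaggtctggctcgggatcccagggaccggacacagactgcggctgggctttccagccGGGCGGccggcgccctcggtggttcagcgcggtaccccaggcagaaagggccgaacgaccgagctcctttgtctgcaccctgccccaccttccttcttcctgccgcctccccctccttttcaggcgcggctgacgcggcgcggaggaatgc
Nrp1 held a nuclear receptor half-site 246 bases and a GC box 98 bases before its start, and Itgb1 a GC box 151 bases before its start. Of all 32851 RefSeq windows of this length, 4607 held a nuclear receptor half-site and 32.7% a GC box, and of the 9722 windows of tested genes, 10.6% and 57.7%.

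Genes known as markers of Nrp1+ or thymic Treg in the literature moved as a group: of 6 tested (Nrp1 left out), 5 rose and 0 fell, with a median difference of 2.15, and the same 5 of 6 were called without Nrp1+ replicate 3. Besides Penk, Ikzf2 (Helios), a transcription factor of the Ikaros family, was 96.5, 120 and 96.1 FPKM in Nrp1+ libraries, against 9.97, 15.03 and 16.9 FPKM in Nrp1-negative libraries (2.84 ± 0.19; adjusted p = 0.000353). Its Nrp1-negative level was thus well above that of Nrp1. Itgb8, whose product pairs with integrin alpha-V to release active TGF-beta, was 4.57, 7.67 and 6.41 FPKM in Nrp1+ libraries, against 0.215, 0.452 and 0.538 FPKM in Nrp1-negative libraries (2.35 ± 0.19; adjusted p = 0.000541). Swap70, which binds actin and Rac, averaged 25.8 ± 1.05 FPKM in Nrp1+ and 5.99 ± 1.27 FPKM in Nrp1-negative Treg (1.96 ± 0.15; adjusted p = 0.00048). None of these groups overlapped. The list was made with earlier results of these data known, so its direction is not independent evidence. Penk and Itgb8 also passed the filter through the Nrp1+ libraries only, so their direction was set by the filter.

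**Figure D2:**
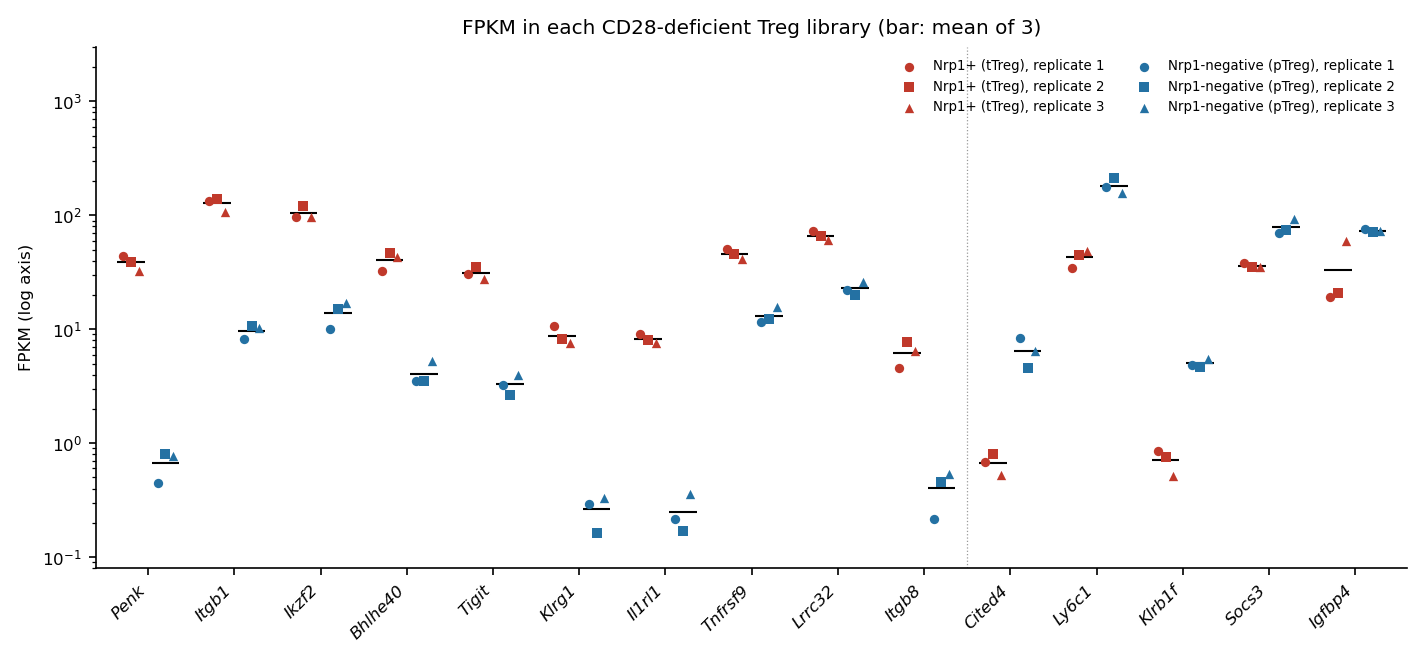
FPKM (log axis) of 15 genes in each CD28-deficient Treg library, Nrp1+ in red on the left of each pair and Nrp1-negative in blue on the right, with replicates as circle, square and triangle and the mean as a bar. In the 10 genes left of the dotted line all Nrp1+ libraries lie above all Nrp1-negative ones, and in the genes right of it they lie below, with Nrp1+ replicate 3 of Igfbp4 (60.0 FPKM) close to the Nrp1-negative libraries.

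The Treg signature as a whole leaned to the Nrp1+ side although Foxp3 did not. Of 30 tested signature genes, 21 rose and 1 fell, with a median difference of 0.93, against 10.4% called among all tested genes. Without Nrp1+ replicate 3, 17 rose and 0 fell. The lists share members and are not separate observations. Ikzf2, Swap70, Itgb8 and Plagl1 are also among the risen Nrp1+ Treg markers above. Tigit, Cd83, Itgae, Fgl2, Ebi3 and Tnfrsf9 are also among the risen effector Treg genes below, and Tigit among the coinhibitory receptors. Ikzf4 (Eos), a partner of Foxp3 in gene repression, averaged 34.6 ± 3.91 FPKM in Nrp1+ and 8.54 ± 2.03 FPKM in Nrp1-negative Treg (1.92 ± 0.18; adjusted p = 0.000996). Cd83, a surface molecule of activated lymphocytes, averaged 32.2 ± 3.30 FPKM in Nrp1+ and 3.89 ± 0.492 FPKM in Nrp1-negative Treg (2.76 ± 0.12; adjusted p = 9.68e-05). The single member that fell was Ikzf3 (Aiolos), another Ikaros factor, named here after its values were seen: 26.2, 38.9 and 29.7 FPKM in Nrp1+ libraries, against 50.4, 75.7 and 83.2 FPKM in Nrp1-negative libraries (-1.11 ± 0.22; adjusted p = 0.0234), a call lost without Nrp1+ replicate 1 or 3 or Nrp1-negative replicate 2 or 3 (adjusted p from 0.0555 to 0.0918).

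Some genes central to Treg did not pass the test. Il2ra (CD25), the high-affinity chain of the IL-2 receptor, stood at 91.3 ± 10.3 FPKM in Nrp1+ and 74.7 ± 12.1 FPKM in Nrp1-negative Treg (0.29 ± 0.14; adjusted p = 0.256). Ctla4, the inhibitory receptor that competes with CD28 for its ligands, stood at 127 ± 11.96 FPKM in Nrp1+ and 120 ± 12.9 FPKM in Nrp1-negative Treg (0.08 ± 0.11; adjusted p = 0.733). Icos, a costimulatory receptor related to CD28, stood at 33.7 ± 2.10 FPKM in Nrp1+ and 33.9 ± 3.81 FPKM in Nrp1-negative Treg (0.00 ± 0.11; adjusted p = 0.991). The libraries of the groups overlapped for all 3 genes. Il2rb, the beta chain shared by the IL-2 and IL-15 receptors, did rise: 256, 280 and 200 FPKM in Nrp1+ libraries, against 88.3, 117.2 and 120 FPKM in Nrp1-negative libraries (1.17 ± 0.17; adjusted p = 0.00658).

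Effector Treg genes rose in number. Of 26 tested, 18 rose and 2 fell, with a median difference of 0.90, and 15 rose and 1 fell without Nrp1+ replicate 3. The 18 include Klrg1, Il1rl1 and Ccr8, which passed the filter through the Nrp1+ libraries only, so their direction was set by the filter. Klrg1, an inhibitory lectin-like receptor of highly differentiated Treg, was 10.7, 8.21 and 7.53 FPKM in Nrp1+ libraries, against 0.295, 0.163 and 0.328 FPKM in Nrp1-negative libraries (2.95 ± 0.15; adjusted p = 0.000133). Il1rl1 (ST2), the receptor for the alarmin IL-33, was 9.04, 7.97 and 7.61 FPKM in Nrp1+ libraries, against 0.218, 0.168 and 0.355 FPKM in Nrp1-negative libraries (2.88 ± 0.12; adjusted p = 6.71e-05). Both were close to absent from the Nrp1-negative libraries and passed the filter through the Nrp1+ libraries only. Ccr8, a chemokine receptor of tissue Treg, averaged 8.77 ± 0.644 FPKM in Nrp1+ and 0.605 ± 0.249 FPKM in Nrp1-negative Treg (2.62 ± 0.14; adjusted p = 0.00015). Ccl1, which encodes the ligand of CCR8, was 5.23, 5.73 and 4.58 FPKM in Nrp1+ libraries and was listed at 0 in all 3 Nrp1-negative libraries (adjusted p = 7.63e-05).

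The coinhibitory receptors included 9 of 15 tested genes that rose and 0 that fell, with a median difference of 0.58; 6 rose without Nrp1+ replicate 3. Tigit, which binds CD155 on antigen-presenting cells, was 30.2, 35.1 and 27.8 FPKM in Nrp1+ libraries, against 3.21, 2.63 and 4.005 FPKM in Nrp1-negative libraries (2.91 ± 0.15; adjusted p = 0.00015). Pdcd1 (PD-1) was 23.1, 23.1 and 19.0 FPKM in Nrp1+ libraries, against 4.12, 4.31 and 5.20 FPKM in Nrp1-negative libraries (2.04 ± 0.13; adjusted p = 0.000275). Neither gene's groups came near each other. Cd200, the ligand of an inhibitory receptor on myeloid cells, averaged 28.6 ± 2.93 FPKM in Nrp1+ and 11.9 ± 1.42 FPKM in Nrp1-negative Treg (1.20 ± 0.12; adjusted p = 0.00162).

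Among TNF receptor genes, 5 of 15 tested rose and 1 fell, with a median difference of 0.03; without Nrp1+ replicate 3 the counts were 4 and 1. The members described are costimulatory receptors. Tnfrsf9 (4-1BB) was 50.5, 46.2 and 41.7 FPKM in Nrp1+ libraries, against 11.6, 12.3 and 15.6 FPKM in Nrp1-negative libraries (1.74 ± 0.14; adjusted p = 0.000492). Tnfrsf8 (CD30) was 3.64, 2.81 and 3.53 FPKM in Nrp1+ libraries, against 0.263, 0.0802 and 0.379 FPKM in Nrp1-negative libraries (1.80 ± 0.14; adjusted p = 0.000492). Tnfrsf4 (OX40) averaged 94.0 ± 2.19 FPKM in Nrp1+ and 35.5 ± 4.71 FPKM in Nrp1-negative Treg (1.39 ± 0.11; adjusted p = 0.000502), and the groups of all 3 genes were apart in every library. Tnfrsf8 and Tnfrsf9 also held an AP-1 motif in the 250 bases before a RefSeq start, as did Anxa2, Bcl2a1b, Bcl2a1d and Cd80. These are 6 of the 39 named genes that rose and have a RefSeq window, against 0 of 18 that fell. The windows chr4:145315165-145315414 (minus strand) and chr4:150927749-150927998 (plus strand; GRCm38.p6) are shown with the same capitals because they hold the motif in members of one family.
Tnfrsf8: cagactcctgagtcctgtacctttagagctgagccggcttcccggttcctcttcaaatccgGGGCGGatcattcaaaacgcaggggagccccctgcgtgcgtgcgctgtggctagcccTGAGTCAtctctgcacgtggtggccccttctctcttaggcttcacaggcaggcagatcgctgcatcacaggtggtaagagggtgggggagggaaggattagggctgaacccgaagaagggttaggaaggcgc
Tnfrsf9: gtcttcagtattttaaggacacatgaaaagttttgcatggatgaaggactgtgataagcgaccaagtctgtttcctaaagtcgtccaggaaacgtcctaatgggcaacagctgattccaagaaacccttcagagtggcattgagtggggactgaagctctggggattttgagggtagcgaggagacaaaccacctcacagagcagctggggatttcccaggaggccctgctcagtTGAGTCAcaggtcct
The AP-1 match lies 132 bases before the start of Tnfrsf8 and 15 bases before that of Tnfrsf9. The RefSeq start used for Tnfrsf9 lies downstream of its GENCODE start (chr4:150914562), so its window falls inside the GENCODE span. Over all windows 6.75% held an AP-1 motif, over tested genes 4.01%, over genes called higher 6.50% (36 of 554 windows) and over genes called lower 2.31% (12 of 519). A match is a run of letters and no evidence of binding, and no test was made of these shares.

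Genes of TGF-beta activation and signalling were mostly level (19 tested, 5 rose, 1 fell, median 0.04; 2 rose and 0 fell without Nrp1+ replicate 3). The members with the largest differences present and activate the cytokine at the cell surface. Lrrc32 (GARP), which holds latent TGF-beta on Treg, was 72.7, 65.2 and 60.3 FPKM in Nrp1+ libraries, against 22.04, 20.1 and 26.2 FPKM in Nrp1-negative libraries (1.50 ± 0.12; adjusted p = 0.000611). Itgav, the alpha-V partner of Itgb8, averaged 11.3 ± 0.622 FPKM in Nrp1+ and 6.09 ± 1.72 FPKM in Nrp1-negative Treg (0.82 ± 0.19; adjusted p = 0.036), a call that was lost without any one of Nrp1+ replicates 1, 2 or 3 or Nrp1-negative replicate 2 (adjusted p from 0.0949 to 0.138). Tgfb1 itself, named after its values were seen, stood at 68.8 ± 4.41 FPKM in Nrp1+ and 66.9 ± 6.51 FPKM in Nrp1-negative Treg (0.04 ± 0.10; adjusted p = 0.846). Among integrins, Itgae (CD103), the chain that binds E-cadherin on epithelium, was 14.5, 10.1 and 8.53 FPKM in Nrp1+ libraries, against 2.50, 1.60 and 2.83 FPKM in Nrp1-negative libraries (1.85 ± 0.22; adjusted p = 0.0031).

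Several genes of helper T cell lineages rose in Nrp1+ Treg. Of 14 tested Th1 genes, 7 rose and 0 fell, with a median difference of 0.71 (4 and 1 without Nrp1+ replicate 3). Ifng, the Th1 cytokine interferon-gamma, was 13.3, 19.0 and 10.9 FPKM in Nrp1+ libraries, against 1.75, 1.12 and 0.990 FPKM in Nrp1-negative libraries (2.74 ± 0.22; adjusted p = 0.000541). Nkg7, a granule membrane protein of cytotoxic cells, was 36.5, 34.9 and 27.3 FPKM in Nrp1+ libraries, against 2.26, 2.08 and 4.28 FPKM in Nrp1-negative libraries (3.16 ± 0.23; adjusted p = 0.00041). All Nrp1+ libraries were above all Nrp1-negative ones in both genes. Cxcr3, the receptor that guides cells to Th1 sites, averaged 35.2 ± 1.17 FPKM in Nrp1+ and 14.02 ± 1.21 FPKM in Nrp1-negative Treg (1.27 ± 0.10; adjusted p = 0.00048). The Th1 master factor Tbx21, named after its values were seen, was at 2.76 ± 0.346 FPKM in Nrp1+ and 1.20 ± 0.649 FPKM in Nrp1-negative Treg and missed the threshold (0.81 ± 0.21; adjusted p = 0.0536; with the replicate block 0.0429).

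Nkg7 and Ifng are also made by NK and CD8 T cells, so the markers of those cells are given beside them. Of 9 NK markers, 6 were under 1 FPKM in all 6 libraries and 2 passed the filter; their sum was 34.9 to 38.4 FPKM in Nrp1+ and 5.36 to 7.98 FPKM in Nrp1-negative libraries. Less Nkg7 it was 1.92, 2.18 and 7.63 FPKM in Nrp1+ libraries, against 3.73, 3.28 and 3.70 FPKM in Nrp1-negative libraries. Of 5 CD8 T cell markers, Gzmk was listed at 0 in all 6 libraries, and the sum was 7.37 to 11.2 FPKM in Nrp1+ and 8.22 to 11.9 FPKM in Nrp1-negative libraries. The groups overlapped in that sum. The part of NK or CD8 T cells in the values of Nkg7 and Ifng was not tested.

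Gata3, the Th2 factor that Treg also use in tissues, averaged 65.2 ± 6.80 FPKM in Nrp1+ and 36.3 ± 7.78 FPKM in Nrp1-negative Treg (0.85 ± 0.17; adjusted p = 0.0252), but the call was lost without any one of Nrp1+ replicates 1, 2 or 3 or Nrp1-negative replicate 2 (adjusted p from 0.0586 to 0.102). Genes of the Th17 programme went both ways: of 7 tested, 2 rose and 2 fell (1 and 2 without Nrp1+ replicate 3). Rora, a nuclear receptor of Th17 and innate lymphoid cells, averaged 6.64 ± 0.700 FPKM in Nrp1+ and 2.84 ± 1.11 FPKM in Nrp1-negative Treg (1.03 ± 0.21; adjusted p = 0.0275), a call lost in the same 4 fits as that of Gata3 (adjusted p from 0.0788 to 0.109). Maf, a factor that drives IL-10 in T cells, averaged 27.1 ± 5.45 FPKM in Nrp1+ and 51.4 ± 4.51 FPKM in Nrp1-negative Treg (-0.91 ± 0.16; adjusted p = 0.0151; 0.0629 without Nrp1-negative replicate 2). The cytokine genes Il10, Il17a, Il17f and Il22 were under the filter and not tested.

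Transcription factors and signal regulators of activated T cells were among the largest rises. Bhlhe40, a repressor induced by antigen receptor signals, was 32.8, 46.4 and 43.1 FPKM in Nrp1+ libraries, against 3.48, 3.53 and 5.23 FPKM in Nrp1-negative libraries (3.04 ± 0.18; adjusted p = 0.000245). Rgs16, which switches off chemokine receptor signals, was 30.4, 41.5 and 47.5 FPKM in Nrp1+ libraries, against 2.84, 4.22 and 5.46 FPKM in Nrp1-negative libraries (2.99 ± 0.23; adjusted p = 0.000492). The lowest Nrp1+ library was several-fold above the highest Nrp1-negative one in each. Immediate early genes as a list went both ways, with 5 of 23 tested higher, 5 lower and a median of 0.05; without Nrp1+ replicate 3 the counts were 3 and 2. Nr4a2, an orphan nuclear receptor, averaged 4.50 ± 1.54 FPKM in Nrp1+ and 0.839 ± 0.143 FPKM in Nrp1-negative Treg (1.55 ± 0.21; adjusted p = 0.00509), and Egr2, a zinc finger factor, averaged 12.9 ± 0.838 FPKM in Nrp1+ and 5.57 ± 0.421 FPKM in Nrp1-negative Treg (1.08 ± 0.11; adjusted p = 0.00134). Those that fell, named after their values were seen, were Jun, Jund, Ier2, Dusp2 and Zfp36; Zfp36, which destabilises cytokine messages, was 229, 260 and 239 FPKM in Nrp1+ libraries, against 401, 376 and 396 FPKM in Nrp1-negative libraries (-0.69 ± 0.09; adjusted p = 0.00362). Jun and Zfp36 were called in every fit that left out one library, Jund was lost without any one Nrp1+ library (adjusted p from 0.0620 to 0.0831), Ier2 without any library but Nrp1-negative replicate 2 (adjusted p from 0.0632 to 0.163), and Dusp2 without any one of the 6 (adjusted p from 0.0543 to 0.146).

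NF-kB subunits and targets had 6 of 23 tested genes higher and 0 lower, with a median of 0.18, and 3 higher without Nrp1+ replicate 3. Bcl2a1d and Bcl2a1b, survival genes of the BCL2 family, averaged 20.1 ± 1.57 and 59.1 ± 6.34 FPKM in Nrp1+ Treg, against 6.19 ± 1.42 and 27.1 ± 3.93 FPKM in Nrp1-negative Treg (1.57 ± 0.16 and 1.10 ± 0.13; adjusted p = 0.0014 and 0.00296); they are near-identical copies, so how their reads were shared between them is uncertain. Pmaip1 (Noxa), which promotes cell death, averaged 8.17 ± 1.36 FPKM in Nrp1+ and 3.17 ± 0.629 FPKM in Nrp1-negative Treg (1.14 ± 0.17; adjusted p = 0.00694). Bcl2 itself stood at 38.9 ± 4.06 FPKM in Nrp1+ and 44.8 ± 7.18 FPKM in Nrp1-negative Treg and did not pass the test (-0.19 ± 0.14; adjusted p = 0.469).

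Components of antigen receptor and CD28 signalling had 0 of 37 tested genes higher and 5 lower, with a median of -0.09. The 13.5% called was near the 10.4% of all tested genes. Under quantile normalization 2 rose and 3 fell, with a median of 0.05. The replicate block gave 1 and 11, and leaving out Nrp1+ replicate 3 gave 0 and 3. Over all fits that left out one library between 2 and 8 fell. Lat, the adaptor that links the antigen receptor to downstream enzymes, was 431, 427 and 441 FPKM in Nrp1+ libraries, against 787, 699 and 709 FPKM in Nrp1-negative libraries (-0.75 ± 0.09; adjusted p = 0.00255). Pik3ip1, an inhibitor of PI3 kinase, averaged 36.2 ± 4.76 FPKM in Nrp1+ and 65.6 ± 7.47 FPKM in Nrp1-negative Treg (-0.84 ± 0.13; adjusted p = 0.00993). The groups were apart in both genes. The ligands of CD28 were measured too, since activated T cells carry them. Cd80 was 2.004, 1.45 and 1.45 FPKM in Nrp1+ libraries, against 0.231, 0.163 and 0.0464 FPKM in Nrp1-negative libraries (1.20 ± 0.13; adjusted p = 0.002), and Cd86 averaged 6.34 ± 0.262 FPKM in Nrp1+ and 3.22 ± 0.0652 FPKM in Nrp1-negative Treg (0.80 ± 0.10; adjusted p = 0.00368).

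Of 20 tested genes of the IL-2 receptor and STAT5 axis 5 rose and 1 fell (3 and 1 without Nrp1+ replicate 3), and of 11 genes of adenosine production and sensing 3 rose and 1 fell (2 and 2 without that library). Il1r2, a decoy receptor for IL-1, was 4.58, 4.08 and 4.96 FPKM in Nrp1+ libraries, against 0.757, 0.0370 and 0.196 FPKM in Nrp1-negative libraries (2.09 ± 0.20; adjusted p = 0.00117). Socs3, a feedback inhibitor of cytokine receptors that signal through STAT3, was 37.8, 35.0 and 34.8 FPKM in Nrp1+ libraries, against 70.0, 74.6 and 92.1 FPKM in Nrp1-negative libraries (-1.11 ± 0.12; adjusted p = 0.00189). In each gene the highest library of the lower group was well below the lowest of the other. Entpd1 (CD39), which breaks down extracellular ATP on the way to adenosine, averaged 4.72 ± 0.365 FPKM in Nrp1+ and 1.81 ± 0.329 FPKM in Nrp1-negative Treg (1.03 ± 0.13; adjusted p = 0.00343), and the adenosine receptor gene Adora2a averaged 26.7 ± 2.55 FPKM in Nrp1+ and 15.2 ± 0.904 FPKM in Nrp1-negative Treg (0.77 ± 0.11; adjusted p = 0.00556). Ada, which degrades adenosine, averaged 2.01 ± 0.384 FPKM in Nrp1+ and 4.005 ± 0.274 FPKM in Nrp1-negative Treg (-0.74 ± 0.13; adjusted p = 0.016), a call lost without Nrp1+ replicate 1 or 2 or Nrp1-negative replicate 2 (adjusted p from 0.0693 to 0.0709).

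Genes higher in Nrp1-negative Treg formed a different set. Cited4, a partner of the coactivators CBP and p300, was 0.679, 0.802 and 0.529 FPKM in Nrp1+ libraries, against 8.46, 4.59 and 6.42 FPKM in Nrp1-negative libraries (-2.14 ± 0.20; adjusted p = 0.000985). Klrb1f, a lectin-like receptor of the NK gene complex with close relatives beside it, was 0.846, 0.763 and 0.517 FPKM in Nrp1+ libraries, against 4.86, 4.67 and 5.50 FPKM in Nrp1-negative libraries (-1.82 ± 0.12; adjusted p = 0.000353). Of the Ly6 surface proteins encoded together on chromosome 15, Ly6c1 was 34.8, 44.5 and 49.0 FPKM in Nrp1+ libraries, against 176, 211 and 158 FPKM in Nrp1-negative libraries (-2.07 ± 0.16; adjusted p = 0.00048). All Nrp1+ libraries were below all Nrp1-negative ones in the 3 genes, as in every called gene that fell. Cited4 and Klrb1f passed the filter through the Nrp1-negative libraries only. Ly6c2 averaged 7.60 ± 1.16 FPKM in Nrp1+ and 18.4 ± 1.92 FPKM in Nrp1-negative Treg (-1.18 ± 0.14; adjusted p = 0.00261); its sequence is so close to that of Ly6c1 that reads may have been split between them. Ly6a (Sca-1) averaged 53.5 ± 3.83 FPKM in Nrp1+ and 145 ± 9.77 FPKM in Nrp1-negative Treg (-1.42 ± 0.09; adjusted p = 0.000319). Gbp1, an interferon-induced GTPase, averaged 2.07 ± 0.288 FPKM in Nrp1+ and 7.36 ± 0.253 FPKM in Nrp1-negative Treg (-1.45 ± 0.12; adjusted p = 0.000544), and of 29 interferon response genes tested 1 rose and 0 fell, with a median of -0.11; the counts were 0 and 1 without Nrp1+ replicate 3, and 1 and 5 with the replicate block. The window chr4:120666313-120666562 (GRCm38.p6, plus strand) is shown for Cited4, the largest fall with one RefSeq window; its 3 capitalised runs are GC boxes 138, 120 and 84 bases before the start.
Cited4: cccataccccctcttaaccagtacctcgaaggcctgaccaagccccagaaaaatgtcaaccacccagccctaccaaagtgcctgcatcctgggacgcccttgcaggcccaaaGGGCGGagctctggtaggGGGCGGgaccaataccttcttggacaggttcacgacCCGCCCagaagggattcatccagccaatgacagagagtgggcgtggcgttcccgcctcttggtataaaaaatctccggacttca

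Further genes that fell with groups apart were Rnase4 (-1.76 ± 0.19), which shares its locus with an angiogenin gene, Tubb2a (-1.74 ± 0.12), a beta-tubulin, Serpinb1a (-1.66 ± 0.20), an inhibitor of neutrophil proteases, Myo6 (-1.62 ± 0.14), an unconventional myosin, and Eya2 (-1.29 ± 0.16), a transcriptional coactivator. Each was called in all 6 fits that left out one library. Tubb2a showed the least spread among them, with 5.66, 7.30 and 7.42 FPKM in Nrp1+ libraries, against 25.6, 24.5 and 24.5 FPKM in Nrp1-negative libraries (adjusted p = 0.000373). Gpr18, a receptor of lipid mediators, averaged 14.1 ± 1.41 FPKM in Nrp1+ and 33.2 ± 2.35 FPKM in Nrp1-negative Treg (-1.18 ± 0.11; adjusted p = 0.000985).

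**Figure D3:**
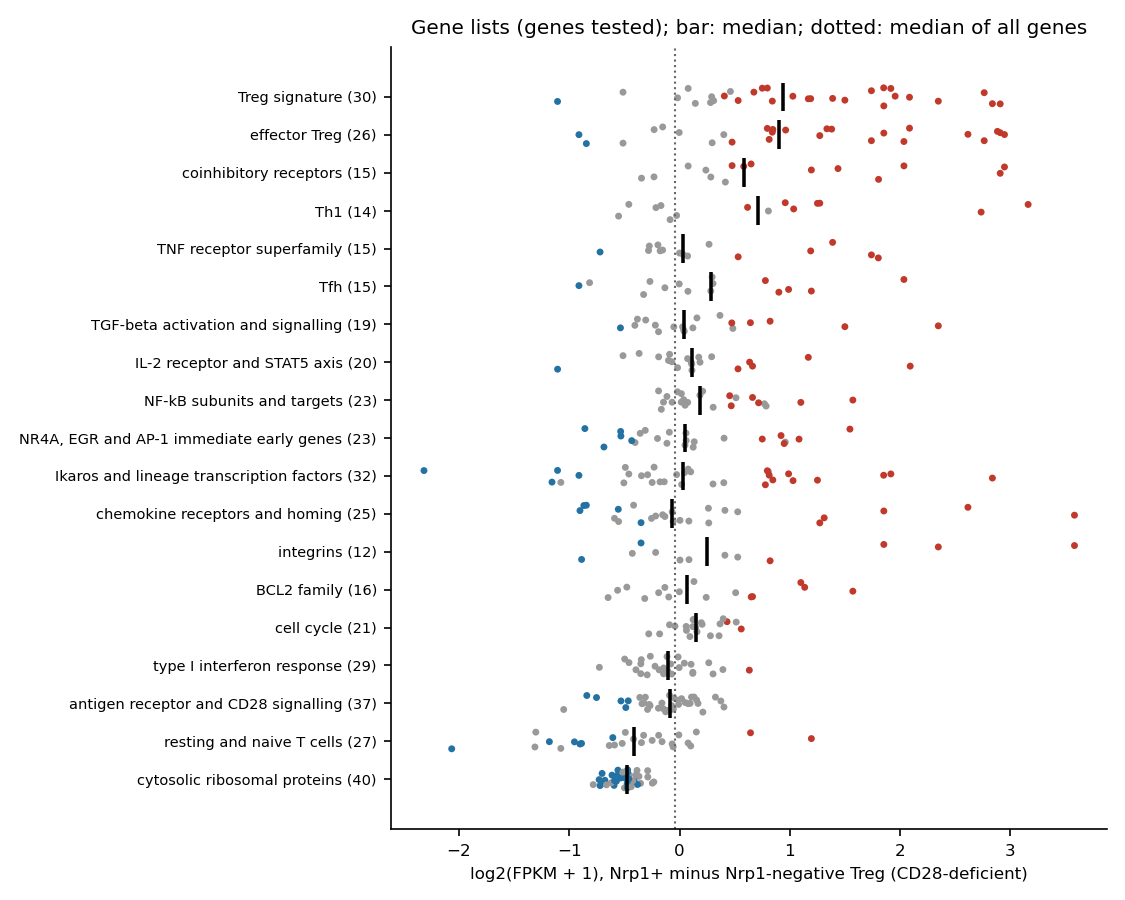
Differences of single genes (points; log2(FPKM + 1), Nrp1+ minus Nrp1-negative Treg, CD28-deficient) in 19 gene lists, with the number tested in brackets, called genes in red (higher) or blue (lower), uncalled in grey, list medians as bars and the median of all tested genes (-0.04) dotted. Treg signature, effector Treg, Th1 and coinhibitory genes lie to the right, and resting T cell and ribosomal protein genes to the left.

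Genes of resting and naive T cells leaned to the Nrp1-negative side, and the number called moved with single libraries. Of 27 tested, 2 rose and 6 fell, with a median of -0.42; the replicate block called 13 lower, leaving out Nrp1+ replicate 3 called 9 lower, and leaving out each library in turn called between 2 (without Nrp1+ replicate 2 or Nrp1-negative replicate 2) and 12 lower (without Nrp1-negative replicate 1). Dapl1, a marker of Nrp1-negative Treg and of naive T cells, was 3.73, 6.74 and 28.4 FPKM in Nrp1+ libraries, against 20.6, 33.0 and 21.0 FPKM in Nrp1-negative libraries. Nrp1+ replicate 3 lay inside the Nrp1-negative range and the other two far below it, so the difference of -1.30 ± 0.62 was not called (adjusted p = 0.234), while without that library it was -2.06 (adjusted p = 0.013). Igfbp4, a binding protein of insulin-like growth factors, was 19.2, 20.9 and 60.0 FPKM in Nrp1+ libraries, against 75.9, 71.5 and 73.1 FPKM in Nrp1-negative libraries. Its difference of -1.31 ± 0.39 was not called (adjusted p = 0.0778; with the replicate block 0.0332) and without Nrp1+ replicate 3 was -1.82 (adjusted p = 0.00118).

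Ccr7, which brings T cells into lymph nodes, was 60.1, 68.8 and 99.6 FPKM in Nrp1+ libraries, against 122, 149 and 151 FPKM in Nrp1-negative libraries (-0.90 ± 0.19; adjusted p = 0.0301). Nrp1+ replicate 3 was again the closest to the Nrp1-negative libraries; without it the difference was -1.11 (adjusted p = 0.00887), while the call was lost without Nrp1+ replicate 1 or 2 or Nrp1-negative replicate 2 or 3 (adjusted p from 0.0733 to 0.113). Il7r, the IL-7 receptor and also a gene of resting cells, went the other way, with 129 ± 10.8 FPKM in Nrp1+ and 83.0 ± 14.6 FPKM in Nrp1-negative Treg (0.64 ± 0.14; adjusted p = 0.0349), a call lost without any Nrp1+ library or Nrp1-negative replicate 3 (adjusted p from 0.0609 to 0.135). Tcf7, a factor of naive and memory T cells, stood at 284 ± 63.9 FPKM in Nrp1+ and 359 ± 61.3 FPKM in Nrp1-negative Treg (-0.34 ± 0.19; adjusted p = 0.309; with the replicate block 0.0441).

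Transcripts of conventional T cells move with this list. The 4 Tconv transcripts summed above were lower in Nrp1+ replicates 1 and 2 than in any Nrp1-negative library, and 14 literature markers of Tconv summed to 611, 710 and 962 FPKM in Nrp1+ libraries and to 822, 1099 and 1112 FPKM in Nrp1-negative libraries, against 1629 to 2164 FPKM in CD28-deficient Tconv. The genes that mark Tconv are in large part those of resting T cells, and their part in the result was not tested. Pdlim4, which stood at 35.4 to 51.5 FPKM in CD28-deficient Tconv, was 0.126, 0.0332 and 8.14 FPKM in Nrp1+ libraries, against 1.53, 0.709 and 1.08 FPKM in Nrp1-negative libraries.

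**Figure D4:**
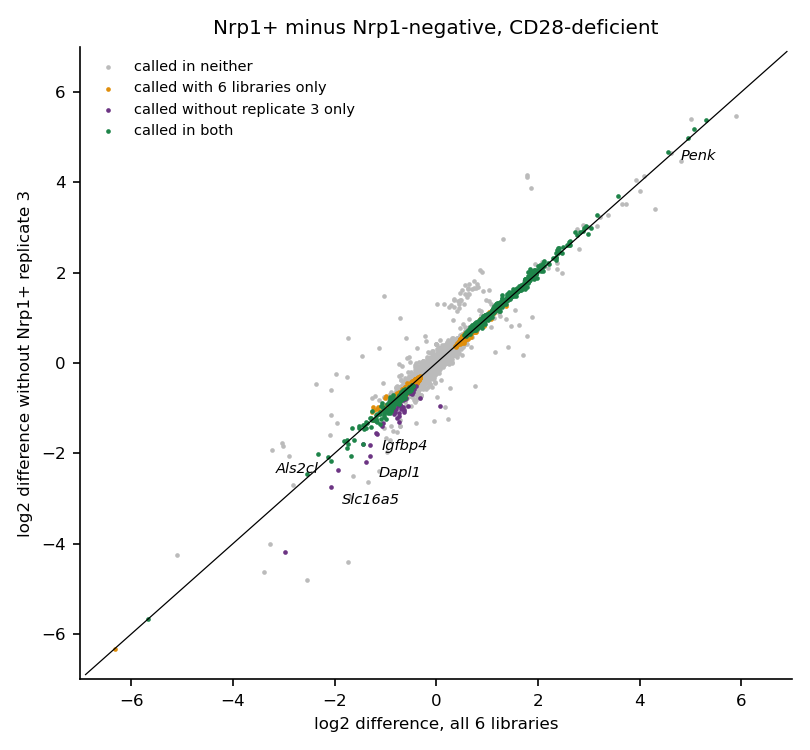
Difference of each tested gene with all 6 libraries (x axis) against the difference without Nrp1+ replicate 3 (y axis), both in log2(FPKM + 1), Nrp1+ minus Nrp1-negative Treg, with the line of equality. Genes called in both fits (544, green) lie near the line, while Dapl1, Igfbp4 and Slc16a5, called without that library only (purple), lie below it.

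Cytosolic ribosomal protein genes were lower in Nrp1+ Treg, by little and all in one direction. Of 40 tested, 0 rose and 23 fell, all 40 had a difference below 0, and the median was -0.48, but under quantile normalization the median was -0.09 and 0 were called. Rps19 was 1135, 1260 and 1099 FPKM in Nrp1+ libraries, against 2134, 1989 and 1689 FPKM in Nrp1-negative libraries (-0.73 ± 0.12; adjusted p = 0.0121), and its call was lost without Nrp1+ replicate 1 or 3 or Nrp1-negative replicate 2 (adjusted p from 0.0554 to 0.0621). The listed genes took 10.3% to 11.4% of all FPKM in Nrp1+ libraries and 12.6% to 13.6% in Nrp1-negative libraries. The number that fell was 2 without Nrp1+ replicate 3, 1 to 24 over the fits that left out each library, and 37 with the replicate block. The summed FPKM of a library moved with these genes: 514726 to 530041 in Nrp1+ and 607036 to 640585 in Nrp1-negative libraries. The part of that sum in the result was not tested.

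Cell cycle and heat shock genes showed few calls. Of 21 tested cell cycle genes, 2 rose and 0 fell, near the background of 10.4%, and 0 were called without Nrp1+ replicate 3. Mki67, the proliferation antigen Ki-67, stood at 2.15 ± 0.0941 FPKM in Nrp1+ and 1.34 ± 0.149 FPKM in Nrp1-negative Treg (0.43 ± 0.11; adjusted p = 0.0456), but it was not called in any fit that left out one library (adjusted p from 0.0541 to 0.179). None of 11 tested heat shock and handling stress genes was called, under the limma fit of 6 libraries or without Nrp1+ replicate 3. Of 10 tested neuropilin, semaphorin and plexin genes (Nrp1 left out) 3 rose and 1 fell, with a median of 0.02 (2 and 1 without Nrp1+ replicate 3). That is 40% called, against 10.4% of all tested genes. Plxna1, a plexin that serves as coreceptor of neuropilins, averaged 1.87 ± 0.163 FPKM in Nrp1+ and 3.56 ± 0.603 FPKM in Nrp1-negative Treg (-0.66 ± 0.13; adjusted p = 0.024), a call lost without any one Nrp1+ library or Nrp1-negative replicate 2 (adjusted p from 0.0687 to 0.111). Sema6d, a transmembrane semaphorin, was 1.12, 1.30 and 1.19 FPKM in Nrp1+ libraries and at or below 0.0278 FPKM in all Nrp1-negative libraries (1.12 ± 0.10; adjusted p = 0.000715). Plxnc1, a semaphorin receptor, averaged 6.10 ± 0.460 FPKM in Nrp1+ and 2.94 ± 0.344 FPKM in Nrp1-negative Treg (0.85 ± 0.12; adjusted p = 0.00592), and Nrp2 was under the filter.

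Wild type mice gave a second set of Nrp1+ and Nrp1-negative Treg that shares no library with the CD28-deficient set. In a limma fit of the 12 Treg libraries, the same 11661 genes held 524 calls in wild type, 4.49% of those tested. Of these calls, 475 were higher (4.07%) and 49 lower (0.420%). The median wild type difference over all tested genes was 0.20, against -0.04 in CD28-deficient Treg. The split of the wild type calls is to be read against that shift. Of the 524, 451 were called with the same sign in both, 86.1% of the wild type calls and 37.4% of the 1207 CD28-deficient calls. The 1207 come from the fit of 6 libraries; within the fit of 12, which called 497 genes in CD28-deficient Treg, 363 were called in both with the same sign, 73.0% of the CD28-deficient and 69.3% of the wild type calls. Of the 1207, 1144 had the same sign in wild type and 63 the opposite one, with 0 called in opposite directions. Across all tested genes the differences of the genotypes had a Pearson r of 0.66, and across the 1207 called genes 0.93, as a description over genes, which are not independent. The 1207 were selected by their CD28-deficient difference, which tends to raise both their r and their share of equal signs. Itgb1 differed by 3.58 ± 0.14 in CD28-deficient and 3.55 ± 0.23 in wild type Treg, and Il1rl1 by 2.88 ± 0.12 in CD28-deficient and 2.87 ± 0.16 in wild type Treg.

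**Figure D5:**
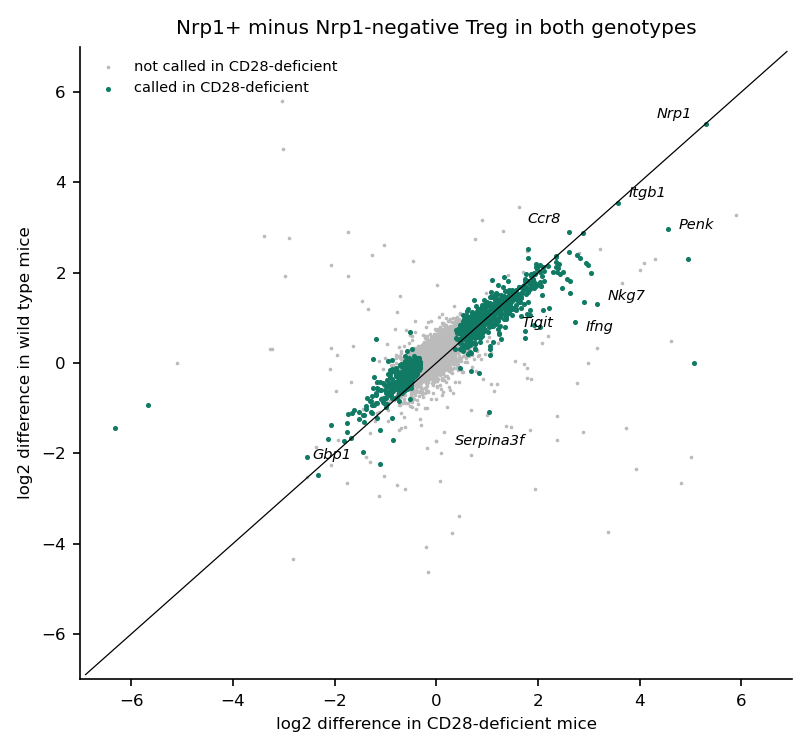
Nrp1+ minus Nrp1-negative difference of each tested gene in CD28-deficient mice (x axis) and in wild type mice (y axis), in log2(FPKM + 1), with the line of equality and the 1207 genes called in CD28-deficient mice in green. Nrp1 and Itgb1 lie on the line, and Penk, Tigit, Nkg7 and Ifng to its lower right.

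The difference between the genotypes was tested itself, as the CD28-deficient minus the wild type subset difference. Of 11661 genes 1 was called (0.00858%), and 166 had an unadjusted p under 0.05. The call was the microRNA locus Mir1247, named after its values were seen. It passed the filter through the CD28-deficient Nrp1+ libraries only. The median difference between the genotypes over all genes was -0.25, -0.01 under quantile normalization and 0.01 without wild type Nrp1-negative replicate 1. The shift thus rests on that library, and single values are to be read against it. Tigit averaged 31.0 FPKM in Nrp1+ and 3.28 FPKM in Nrp1-negative CD28-deficient Treg, against 85.9 FPKM in Nrp1+ and 33.1 FPKM in Nrp1-negative wild type Treg, and its subset difference was 2.91 in CD28-deficient and 1.35 in wild type Treg (difference 1.56 ± 0.27; adjusted p = 0.20). Penk averaged 38.7 FPKM in Nrp1+ and 0.676 FPKM in Nrp1-negative CD28-deficient Treg, against 49.0 FPKM in Nrp1+ and 5.53 FPKM in Nrp1-negative wild type Treg (difference 1.60 ± 0.35; adjusted p = 0.53). Neither passed the threshold, so the subset difference of these genes was not shown to depend on CD28, and the SE leaves room for a dependence. Serpina3f, a serine protease inhibitor named after its values were seen, came next to Mir1247, with 1.28 FPKM in Nrp1+ and 1.06 FPKM in Nrp1-negative CD28-deficient Treg, against 1.59 FPKM in Nrp1+ and 6.52 FPKM in Nrp1-negative wild type Treg (difference 1.68 ± 0.24; adjusted p = 0.0534).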

How the data were processed

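RNA from spleen was sequenced as single reads of 50 nt from libraries made of total RNA with the NEBNext Ultra kit, per the labels' protocols. Per the submitters' processing notes, the tools were Trimmomatic 1, Cufflinks and TopHat2 2.0.11, and the build was GRCm38. The deposited values are one FPKM per gene symbol and library; the file headers do not name the unit, which is taken from Cufflinks and the look of the values, and the annotation behind the symbols and the strand setting are not given in the sources used here. Without strand, a gene and its antisense or overlapping partner cannot be told apart. No common step of 1 read was found among low values, so the depth per library is unknown.

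Libraries were grouped by title. Genes that reached 1 FPKM in 3 or more CD28-deficient Treg libraries (11661 of 26665 listed) were fitted as log2(FPKM + 1), a pseudocount of 1, with limma 3.58.1 in R 4.3.3 (variance trend, two-sided). A gene that passed this filter through one group only had to differ, so such genes enter with that limit. Nrp1, Penk, Itgb8, Klrg1, Il1rl1, Ccr8, Ccl1, Tnfrsf8, Cd80, Il1r2, Nr4a2 and Sema6d passed through the Nrp1+ libraries only. So did Mir1247, Snora15 and several of the chromosome 14 gene models. Cited4, Klrb1f, Mir5113 and Mir93 passed through the Nrp1-negative libraries only. The p-values of all these genes, and the list counts and medians that include them, carry that limit. The fit had 4 residual degrees of freedom. The difference between genotypes was an interaction term over the 12 Treg libraries. The code was tested on simulated data.

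Libraries of equal replicate number deviated together after the group means were removed, with correlations of 0.35, 0.13 and 0.30 for numbers 1, 2 and 3; the pairing comes from the data, and the labels give the numbers only. The members, the 39 gene lists (712 entries, 705 of them in the files) and the tests were chosen with earlier results of these data known. Named genes are Cd28, Foxp3 and Nrp1, the 15 called genes with the largest difference each way whose groups do not overlap and that keep their sign without Nrp1+ replicate 3, at most 3 called genes of each list, the 5 called genes each way with the largest interaction, and 9 genes named whatever their p (Ikzf2, Swap70, Dapl1, Igfbp4, Il2ra, Ctla4, Icos, Bcl2 and Mki67), without unnamed gene models, antigen receptor segments and small RNAs. Some genes that the rule admits are not reported here. No gene that it admits was called in the interaction. Marker lists of other cells are given by their sums. Positions are from GENCODE M21 on GRCm38 and promoter windows from RefSeq on GRCm38.p6, where 63 of 91 named genes have one. The alternatives tried were a pseudocount of 0.1, no filter, no variance trend, quantile normalization, the replicate block, more libraries in the fit, and leaving out each library.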

Additional observations from a re-analysis of the deposited data

Results flagged for a closer look

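The microRNA locus Mir1247 on its own differed between the genotypes, by the limma test of the CD28-deficient minus the wild type subset difference (adjusted p = 1.77e-08). It was 39.5, 31.8 and 28.0 FPKM in CD28-deficient Nrp1+ Treg and was listed at 0 in the 3 CD28-deficient Nrp1-negative libraries and in the 12 libraries of all other groups, so no fold is given. It was chosen after its values were seen, and the named genes leave small RNAs out. An exact 0 in such files can be a failed estimate: 5 other small RNA loci were called in the subset comparison, and Mir5113 and Mir93 were listed at 0 in all 3 Nrp1+ libraries while Snora15 was listed at 0 in all 3 Nrp1-negative libraries.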

How the results depend on the processing

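Counts of called genes depended on the fit more than directions did, and no called named gene reversed its direction. Small differences of some uncalled named genes changed sign: that of Cd28 ranged from -0.19 to 0.15 over the fits that left out one library. The larger side of a list's calls turned for the interferon response list, with 1 higher and 0 lower, which had 1 and 5 with the replicate block, 0 and 1 without Nrp1+ replicate 3 and with the block over the 12 Treg libraries less that replicate, and 1 and 2 without Nrp1-negative replicate 1. It also turned for the literature markers of Tconv, with 1 higher and 2 lower, which had 1 and 0 without Nrp1-negative replicate 2. With all 6 libraries 1207 genes were called (585 higher, 622 lower). The replicate block, which relies on the pairing of numbers, gave 2205 (1390 lower); it added Igfbp4 among the named genes and changed no other call of theirs. With the 12 Treg libraries in the fit the count was 497 (363 higher, 134 lower), with all 18 libraries 474 (360 higher, 114 lower), and with the replicate block over the 12 Treg libraries less CD28-deficient Nrp1+ replicate 3 it was 768 (221 lower). Leaving out one library gave 446 to 1456 calls, 333 to 607 higher and 102 to 859 lower. Of the alternatives chosen after seeing the data, the 12 Treg libraries less that replicate gave 355 (280 higher, 75 lower), and less wild type Nrp1-negative replicate 1 gave 1646 (993 lower). A pseudocount of 0.1 gave 1163, no filter 1244 of 20904 genes, no variance trend 1087 and quantile normalization 1188. Of the 83 called named genes, 23 were not called with all 18 libraries (adjusted p from 0.0519 to 0.545), 12 without a filter, 6 under quantile normalization, 2 with the pseudocount of 0.1, 7 with the block over the 12 Treg libraries less that replicate and 31 without the block there. The cause of these shifts was not tested. The difference between genotypes, 1 call, had 4 without a filter, 5 under quantile normalization, 4 with the replicate block, 2 with all 18 libraries and 1 to 4 when one library was left out. Read depth is unknown, so low genes carry an error that cannot be stated, and 3 libraries a group limit what small differences can pass.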

Other observations

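Other gene groups, not described above, also differed between Nrp1+ and Nrp1-negative Treg of CD28-deficient mice. Tox, a nuclear factor of T cells under lasting stimulation, averaged 32.2 ± 1.81 FPKM in Nrp1+ and 15.9 ± 2.89 FPKM in Nrp1-negative Treg (0.99 ± 0.14; adjusted p = 0.00665), within a Tfh list of 15 tested genes of which 5 rose and 1 fell (4 and 2 without Nrp1+ replicate 3). Irf4, a factor of effector Treg differentiation, averaged 13.3 ± 0.163 FPKM in Nrp1+ and 7.18 ± 0.973 FPKM in Nrp1-negative Treg (0.81 ± 0.12; adjusted p = 0.00678, and 0.0860 in the fit of the 12 Treg libraries). Tnfsf11 (RANKL), a cytokine of bone and lymphoid tissue, averaged 20.5 ± 1.61 FPKM in Nrp1+ and 9.91 ± 1.89 FPKM in Nrp1-negative Treg (0.99 ± 0.15; adjusted p = 0.00745). Anxa2, a membrane-binding annexin, averaged 20.7 ± 3.30 FPKM in Nrp1+ and 7.85 ± 0.769 FPKM in Nrp1-negative Treg (1.28 ± 0.14; adjusted p = 0.00225), one of 2 of 14 tested S100, galectin and annexin genes that rose, with or without Nrp1+ replicate 3. Naip5, a sensor of bacterial flagellin with close paralogs on chromosome 13, was 20.3, 21.3 and 21.3 FPKM in Nrp1+ libraries, against 2.76, 2.38 and 2.52 FPKM in Nrp1-negative libraries (2.63 ± 0.10; adjusted p = 4.79e-05). Each of these genes was called in every fit of the 6 libraries that left out one. The S100, galectin and annexin list had 14.3% called, near the 10.4% of all tested genes.

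Homing genes went both ways, with 5 of 25 tested higher and 5 lower (4 and 2 without Nrp1+ replicate 3). Gpr15, a receptor that guides T cells to the colon, averaged 14.3 ± 2.08 FPKM in Nrp1+ and 5.31 ± 1.88 FPKM in Nrp1-negative Treg (1.31 ± 0.22; adjusted p = 0.0138). The call of Gpr15 was lost without Nrp1+ replicate 1 or 3 or Nrp1-negative replicate 2 (adjusted p from 0.0551 to 0.0654). Ccr9, a receptor for the small intestine, averaged 0.973 ± 0.312 FPKM in Nrp1+ and 2.57 ± 0.150 FPKM in Nrp1-negative Treg (-0.87 ± 0.14; adjusted p = 0.0112; 0.0446 without Nrp1+ replicate 3, 0.0510 without Nrp1-negative replicate 2, and 0.0907 in the fit of the 12 Treg libraries). Both were picked after their values were seen.

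A stretch of chromosome 14 (chr14:3049285-7568566, GRCm38) held 31 tested gene models without a name (Gm symbols), and all 31 rose in Nrp1+ Treg, with differences of 0.62 to 2.39 and a median of 1.46. These 31 tested models, of 64 in the files, summed to 250, 252 and 236 FPKM in Nrp1+ libraries. Their sum was 42.8, 54.0 and 60.5 FPKM in Nrp1-negative libraries and 9.56, 9.35 and 49.3 FPKM in CD28-deficient Tconv. Without Nrp1+ replicate 3, 29 of 31 were called, and 29 were called in wild type too, with a median of 1.50 there. Several of the 31 were under 1 FPKM in every Nrp1-negative library, such as Gm3005 with 0.394, 0.386 and 0.551 FPKM there. These passed the filter through the Nrp1+ libraries only, so their direction was set by the filter. The stretch was singled out after its values were seen. Its models are near-identical copies, so reads may be counted in several of them and they are not separate observations.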
